A study of Mus musculus with 8 samples.

Results

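Embryonic astrocytes of the mouse that had been transduced with Bmi1 were set against mouse embryonic astrocytes without that transduction. The transduced cells are titled Uninduced and the others Ast in the labels, and each was measured on 1 Affymetrix array, 2 of the 8 samples of the series. All 35557 probe sets of the deposited table were read as log2 expression values from RMA, a method that corrects background, normalises arrays to a common distribution and summarises the probes of a set. A probe set entered the comparison when its higher value on these 2 arrays exceeded 3.13, the median over the 4 Affymetrix arrays, which left 18979 probe sets. Of these, 1123 differed 4-fold or more, and for them the values in embryonic stem (ES) cells and in Bmi1 spheres were added.

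The ES cells are from blastocysts and the other 3 populations from embryos, per the labels. The Bmi1 spheres are given there as de-differentiated cells of Bmi1-transduced astrocytes in what is called an NSC culture condition. The labels give no strain, vector, promoter, time after transduction or number of animals for these 4 arrays, and they do not say what Uninduced refers to or whether the astrocytes were of the same culture as the cells that were transduced. The series also holds 4 Agilent arrays of other populations, which were not used here. With 1 array per population there was no replicate, no test and no error, so every value describes these arrays, and differences between RNA preparations cannot be told apart from differences between cell populations.

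Bmi1 belongs to the first Polycomb repressive complex, which modifies a histone and keeps genes silent. It is best known for repression of the Cdkn2a locus, whose products halt the cell cycle, and it is required for self-renewal of neural stem cells. Astrocytes are glial cells that support neurons, and in culture they can be brought back toward a dividing, immature state. The sources used here do not pair the probe sets with genes. The level of Bmi1 itself, the astrocyte and ES cell markers that would check the labels, and the gene lists planned for this comparison were therefore not analysed here, and probe sets are given by number.

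The transduced cells differed from astrocytes by less than 2-fold at most probe sets, and the wide differences were mainly toward lower values. Of the 18979 probe sets, 14415 (76.0%) lay within 2-fold. At 2-fold or more, 2585 were higher (13.6%) and 1979 lower (10.4%) in the transduced cells. At 4-fold or more, the balance was the other way, with 390 higher (2.05%) and 733 lower (3.86%), together 5.92%. Many of these differences had a weak side: where both values had to exceed 3.13, 184 were higher and 284 lower at 4-fold. With the filter on the higher value raised to the 75th percentile, which leaves the weaker value free, 242 were higher and 495 lower. Lower probe sets made up 65.3% of those past 4-fold and 79.1% of the 363 past 8-fold.

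**Figure D1:**
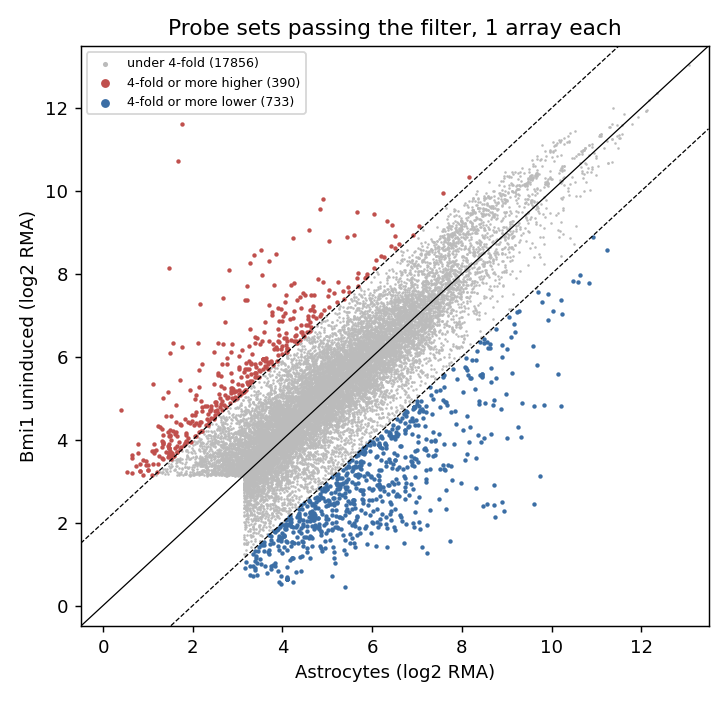
Each point is a probe set that passed the filter, with its log2 RMA value in astrocytes on the x axis and in Bmi1-transduced (uninduced) cells on the y axis. The solid line marks equal values and the dashed lines 4-fold, with 390 points above the upper line, 733 below the lower line and 17856 between, and the straight inner edges at 3.13 come from the filter.

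The median log2 difference, transduced minus astrocytes, was 0.14, and 58.0% of the probe sets had the higher value in the transduced cells. The distribution as deposited was therefore shifted slightly upward while its lower tail was the longer one. The median was smaller, 0.05, with the 4 columns normalised to the same quantiles. As deposited it was 0.31 in probe sets that carry consecutive numbers and 0.10 in the others. The 1st and 99th percentiles of the log2 difference were -3.44 and 2.39, and the 5th and 95th were -1.72 and 1.51. The excess of higher probe sets at 2-fold depended on the scaling: with the 4 columns normalised to the same quantiles, 2074 were higher and 2130 lower. It also lay largely in probe sets that carry consecutive numbers, of which 627 were 2-fold higher and 107 lower. Without them 1942 were higher and 1843 lower. The excess of lower ones at 4-fold did not turn, with 320 higher and 750 lower on the quantile scaling.

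Past 16-fold there were 26 higher and 87 lower probe sets, and past 32-fold 7 higher and 22 lower. Past 64-fold there were 3 higher and 9 lower ones. Only 2 higher probe sets and 1 lower one passed 128-fold, too few to read a direction from.

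**Figure D2:**
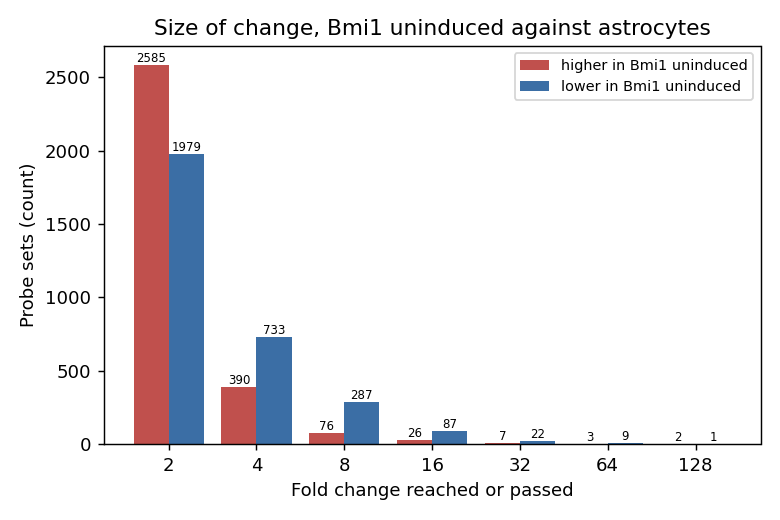
Bars give the number of probe sets that reached or passed each fold change on the x axis, separately for probe sets higher and lower in Bmi1-transduced (uninduced) cells than in astrocytes. Higher probe sets outnumber lower ones at 2-fold (2585 and 1979), and lower ones outnumber higher ones from 4-fold (733 and 390) to 64-fold (9 and 3).

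The counts by level were as follows, with the 18979 probe sets divided into quartiles of their mean over the 4 arrays. A probe set of low mean enters only when its astrocyte or transduced value passes 3.13, so the filter itself places wide differences in the lowest quartile, and nothing is read from the order of the quartiles. In the lowest quartile, with means from 1.39 to 3.86, 3.18% were 4-fold higher and 7.38% 4-fold lower in the transduced cells. In the highest quartile, with means from 6.05 to 12.9, the shares were 1.16% and 1.54%. Lower probe sets thus outnumbered higher ones at each end, and also in the middle quartiles (179 and 131 lower, 103 and 81 higher). The median log2 difference went from 0.06 in the lowest quartile to 0.25 in the highest.

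The probe sets near the limits show how sharp the counts are. The smallest upward log2 difference counted as 4-fold was 2.0003 and the largest one left out 1.9985, and downward they were -2.0007 and -1.9993. Within 0.1 of the 4-fold limit on the log2 scale lay 66 higher probe sets inside and 66 outside, and 65 lower ones inside and 74 outside. At the filter, the lowest value inside was 3.1337 and the highest outside 3.1330. Of the 16578 probe sets that did not pass the filter, and so were weak on both arrays, 32 differed 4-fold or more.

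The 3 pairs of arrays with the most 4-fold differences all held the astrocyte array. Over the same 18979 probe sets, 1123 lay 4-fold or more apart between astrocytes and transduced cells, 1060 between astrocytes and spheres and 1176 between astrocytes and ES cells. Among the other 3 arrays there were fewer, with 384 between transduced cells and spheres, 812 between transduced cells and ES cells and 298 (1.57%) between spheres and ES cells. The Pearson correlation over all 35557 probe sets was 0.934 between astrocytes and transduced cells. It was 0.925 between astrocytes and spheres and 0.915 between astrocytes and ES cells. For transduced cells it was 0.954 with spheres and 0.934 with ES cells, and between spheres and ES cells it was 0.961. On this unfiltered measure, transduced cells thus stood as near to astrocytes as to ES cells. These arrays are shared between the pairs and the filter used only the astrocyte and transduced values, so the counts are not independent of each other. A probe set high only in spheres or ES cells was left out, which can only lower the counts of pairs with those arrays. Between spheres and ES cells, 292 were higher in spheres and 6 lower. How far the filter lowers each count was not tested.

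The widest upward difference was that of probe set 10582545. It read 1.77 in astrocytes, 11.6 in the transduced cells, 11.5 in the spheres and 1.62 in ES cells. The transduced cells were thus 921-fold above astrocytes, the spheres 824-fold, and ES cells within 1.11-fold of astrocytes. Probe set 10582549, the next, read 1.68 in astrocytes, 10.7 in the transduced cells, 11.0 in the spheres and 2.04 in ES cells, 531-fold higher in the transduced cells. Both probe sets were therefore high in the 2 populations that carry the Bmi1 transduction and low in the 2 that do not. Their astrocyte values lie below the filter value, so the size of these folds is uncertain.

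The widest downward difference was that of probe set 10603151. It read 9.61 in astrocytes, 2.44 in the transduced cells, 3.28 in the spheres and 2.85 in ES cells, 144-fold lower in the transduced cells than in astrocytes. Probe set 10355500 read 8.94 in astrocytes, 2.29 in the transduced cells, 2.73 in the spheres and 2.83 in ES cells, 101-fold lower in the transduced cells. Both were high in astrocytes and low on the other 3 arrays. They were 80.0-fold and 74.0-fold lower in spheres than in astrocytes, and 108-fold and 69.4-fold lower in ES cells. The transduced and ES values of both, and the sphere value of 10355500, lie below the filter value and the sphere value of 10603151 just above it, so the size of these folds is uncertain too.

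The 390 probe sets that were 4-fold higher in the transduced cells were chosen by their values on the astrocyte and transduced arrays, so those 2 levels are a description. Their median level was 3.04 in astrocytes and 5.61 in the transduced cells, on the log2 RMA scale. It was 4.84 in the spheres and 3.79 in ES cells, which the choice did not use. Over all 18979 probe sets the medians were 4.93, 5.01, 4.93 and 4.80 in the same order. The set was thus weak in astrocytes, where 206 of the 390 (52.8%) lay at or below 3.13. In the spheres 65 (16.7%) did so, and in ES cells 125 (32.1%).

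The 733 probe sets that were 4-fold lower in the transduced cells had a median level of 5.75 in astrocytes and 2.71 in the transduced cells. It was 3.54 in the spheres and 3.57 in ES cells. In the transduced cells 449 of the 733 (61.3%) lay at or below 3.13, in the spheres 284 (38.7%) and in ES cells 292 (39.8%). Most of the set therefore lay, in the transduced cells, in the lower part of the measured range, where a fold is less certain.

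**Figure D3:**
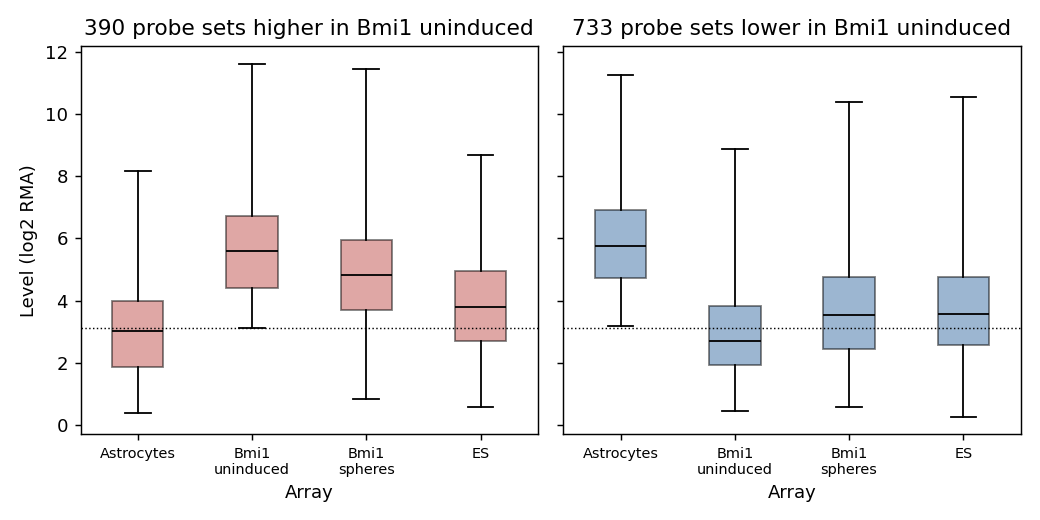
Boxes give the quartiles and median of the log2 RMA level over probe sets on each of the 4 arrays, whiskers run from the lowest to the highest probe set, and the dotted line is the filter value of 3.13. The left panel holds the 390 probe sets 4-fold or more higher in Bmi1-transduced (uninduced) cells, with spheres (median 4.84) closer to the transduced cells (5.61) than ES cells are (3.79), and the right panel the 733 lower ones, where spheres (3.54) and ES cells (3.57) have like medians.

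To say whether a change was kept in the spheres, each sphere value was placed on a line from the astrocyte value (0) to the transduced value (1). A change counted as kept when the sphere value was nearer to the transduced cells (0.5 or more) and as reversed when it lay on the far side of the astrocyte value (below 0). The astrocyte and transduced arrays both chose the probe sets and set the ends of this line, so the shares are a description of the 3 arrays.

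By this position measure, most of the changes were kept in the spheres in both directions. Fewer were still 4-fold from astrocytes, 39.0% of the higher and 58.4% of the lower set. For the lower set the share is not particular to the spheres, since ES cells lay nearer to the transduced cells in 75.3%. Of the 390 higher probe sets, 284 (72.8%) were kept, 93 (23.8%) lay nearer to astrocytes and 13 (3.33%) were reversed. Of the 733 lower ones, 566 (77.2%) were kept, 138 (18.8%) lay nearer to astrocytes and 29 (3.96%) were reversed. The median position was 0.69 for the higher and 0.84 for the lower set. In the spheres, 85 of the 390 higher (21.8%) and 156 of the 733 lower probe sets (21.3%) lay beyond the transduced value. The transduced array also chose the probe sets, so a smaller change in the spheres follows in part from the choice.

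By fold, 152 of the 390 higher probe sets (39.0%) were still 4-fold higher in spheres than in astrocytes, against 2.07% of all probe sets. Of the 733 lower ones, 428 (58.4%) were still 4-fold lower, against 3.51%. The astrocyte array that chose these probe sets is also the reference here. Shares above those of all probe sets therefore follow in part from the choice and are a description. The median log2 difference of spheres from astrocytes was 1.77 for the higher set and -2.21 for the lower set, and 0.04 over all 18979. Within 2-fold of astrocytes were 73 higher (18.7%) and 114 lower (15.6%) probe sets. A reversal of 2-fold or more was rare, with 3 higher and 9 lower probe sets, of which 0 and 1 reached 4-fold.

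Set against the transduced cells, 51 of the 390 higher probe sets were 4-fold lower in the spheres, where 0.811% of all probe sets were. Of the 733 lower ones, 104 were 4-fold higher in the spheres, where 1.21% of all probe sets were. The transduced array that chose these probe sets is also the reference here, so a return above the shares of all follows in part from the choice. The median log2 difference of spheres from transduced cells was -0.75 for the higher and 0.49 for the lower set, and -0.07 over all.

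**Figure D4:**
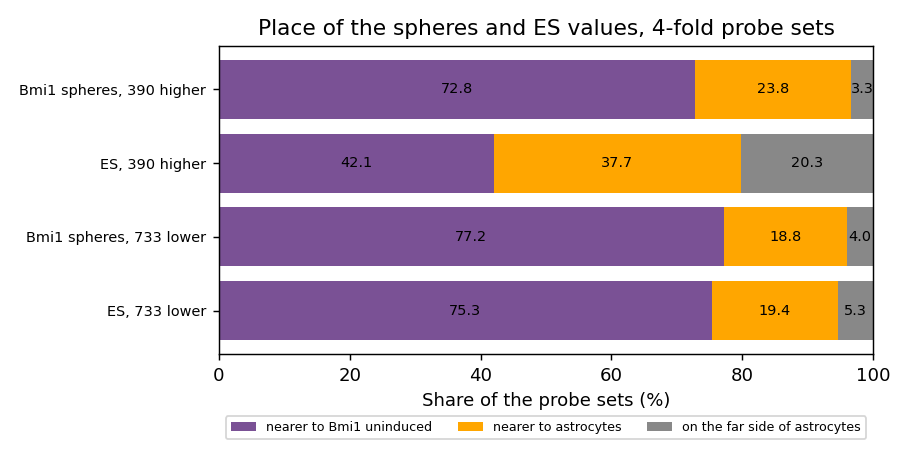
Stacked bars give the share of the 390 higher and 733 lower probe sets whose value in Bmi1 spheres or in ES cells lay nearer to Bmi1-transduced (uninduced) cells, nearer to astrocytes, or on the far side of the astrocyte value. The share nearer to the transduced cells is 72.8% in spheres and 42.1% in ES cells for the higher set, and 77.2% and 75.3% for the lower set.

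The ES values were placed on the same line, with the same limit that the astrocyte array both chose the probe sets and sets one end of it. In the lower set many values are also near the bottom of the scale on several arrays (61.3% of the transduced and 39.8% of the ES values at or below 3.13), and the part of this in the shares was not tested. Of the 733 lower probe sets, the ES value lay nearer to the transduced cells in 552 (75.3%), nearer to astrocytes in 142 (19.4%) and on the far side of astrocytes in 39 (5.32%). Of the 390 higher ones, it lay nearer to the transduced cells in 164 (42.1%), nearer to astrocytes in 147 (37.7%) and on the far side in 79 (20.3%). The median position of ES cells was 0.78 for the lower and 0.37 for the higher set. The difference between the directions was not tested, and no value for probe sets chosen in this way without a change is at hand.

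By fold, 390 of the 733 lower probe sets (53.2%) were 4-fold lower in ES cells than in astrocytes, against 4.62% of all probe sets. Of the 390 higher ones, 59 (15.1%) were 4-fold higher in ES cells, against 1.58%, and 189 (48.5%) lay within 2-fold of astrocytes. Against the transduced cells, 142 of the higher set were 4-fold lower in ES cells (2.88% of all) and 119 of the lower set 4-fold higher (1.40% of all). The reference array in each of these comparisons also chose the probe sets. Their distance from the shares of all probe sets therefore follows in part from the choice.

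With the size of the difference, the shares nearer to the transduced cells went down in the higher set and moved little in the lower one. The higher set here includes 102 probe sets with consecutive numbers, set apart below, of which 91.2% were kept in the spheres. The shares by size were not computed without them, so their part in the decline was not tested. Of the 314 probe sets that were 4- to 8-fold higher in the transduced cells, 75.2% were kept in the spheres and 47.1% lay nearer to the transduced cells in ES cells. Of the 26 that were 16-fold or more higher, 14 (53.8%) were kept in the spheres and 3 (11.5%) lay nearer to the transduced cells in ES cells. For the lower set the shares were 78.3% and 76.0% among the 446 that were 4- to 8-fold lower, and 77.0% and 74.7% among the 87 that were 16-fold or more lower. With 26 probe sets at the far end, the exact (Clopper-Pearson) 95% interval of the sphere share is 33.4 to 73.4%, which covers counting only and treats probe sets as independent.

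Spheres and ES cells could also be compared with each other on the chosen probe sets, and neither array entered the choice other than through the filter value. At the 733 lower probe sets they were within 2-fold at 665 (90.7%), near the 89.0% of all 18979. At the 390 higher probe sets they were within 2-fold at 248 (63.6%), with 140 (35.9%) 2-fold higher in spheres and 2 (0.51%) 2-fold lower, where 8.26% and 2.72% of all probe sets were. Of the 390, 102 (26.2%) have consecutive numbers. All probe sets with such numbers had a median level of 2.99 in spheres and 2.54 in ES cells, and the others 3.26 and 3.38. The comparison was not computed without them, so their part in it was not tested. The median log2 difference, spheres minus ES, was 0.59 for the higher set, -0.11 for the lower set and 0.01 over all. Across probe sets, which are not replicates, the Pearson correlation of spheres with ES cells was 0.703 over the 390, 0.913 over the 733 and 0.921 over the 18979.

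The numbering of the probe sets set part of the higher group apart. As deposited, 2 unbroken runs of consecutive numbers, of 6614 and 91 probe sets, hold 18.9% of all probe sets, while no 2 of the other 28852 have consecutive numbers. What the runs hold is not given in the sources used here, and they may be control probe sets of the array design and not genes. The counts and the shares of the 4-fold higher set are therefore also given without them. The shares by size of difference and the comparison of spheres with ES cells are not. Of the probe sets that passed the filter, 3309 (17.4%) are in these runs. They hold 102 of the 390 higher probe sets (26.2%) and 22 of the 733 lower ones (3.0%). Within the runs, 3.08% were 4-fold higher and 0.665% 4-fold lower, and outside them 1.84% and 4.54%.

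The runs as a whole read higher on the 2 arrays of Bmi1-transduced origin. Over all 6705 probe sets in runs, the median level was 2.54 in astrocytes, 2.98 in the transduced cells, 2.99 in the spheres and 2.54 in ES cells. Outside the runs it was 3.24, 3.11, 3.26 and 3.38. The 102 higher probe sets in runs were kept in the spheres in 93 cases (91.2%), and the 288 outside in 191 (66.3%). In ES cells 62 (60.8%) and 102 (35.4%) lay nearer to the transduced cells. Leaving the runs out, with the filter value taken anew, gave 286 higher and 709 lower probe sets at 4-fold. Of those 286, 66.8% were kept in the spheres and 35.7% lay nearer to the transduced cells in ES cells.

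Some probe sets are not separate measurements. Over all probe sets, 701 share all 4 values with another probe set. They include 6 of the 390 higher ones, with 2 distinct sets of values, and 29 of the 733 lower ones, with 3. A group of 18 lower probe sets read 4.10 in astrocytes, 0.64 in the transduced cells, 3.54 in the spheres and 3.09 in ES cells. A group of 7 read 6.93, 4.78, 6.40 and 6.23 and a group of 4 read 6.16, 3.86, 5.67 and 5.47 in the same order. All 29 were thus lowest in the transduced cells, with the spheres nearer to astrocytes. Counted once per distinct set of values, the lower set had 707 members, of which 80.1% were kept in the spheres and 78.1% lay nearer to the transduced cells in ES cells.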

How the data were processed

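RNA was extracted with Trizol, labelled with biotin and hybridised to Affymetrix arrays, per the labels' protocols. The authors deposited log2 values, and the submitters' processing notes name RMA with no version number. The array medians were 3.06 for astrocytes, 3.07 for transduced cells, 3.19 for spheres and 3.20 for ES cells, and from 4 to 11 values per array lay below 0. RMA with quantile normalisation gives nearly equal medians, so whether a further step was taken is not given in the sources used here. Array depth has no count, and 1 array per group limits the precision.

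Differences were taken between deposited log2 values and counted at 2-fold and 4-fold, with Python 3.11.15, numpy 2.4.6, pandas 2.3.3 and scipy 1.17.1. The counting was tested on simulated data. Groups came from the labels' source names. The comparison, the limits and the planned lists were chosen with earlier results of these data known. By the naming rule, the 2 highest and 2 lowest probe sets are given by number, because the sources used here do not pair probe sets with genes; the planned gene lists and markers were therefore not computed. Alternatives changed the scaling, the filter, the size limit and the meaning of kept. Leaving out runs of consecutive numbers and repeated values was added after the data were seen.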

Additional observations from a re-analysis of the deposited data

How the results depend on the processing

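Of 62 values recomputed for 8 results, 47 stayed close to the value given (counts within 1.5 times, shares within the exact 95% interval of the main share) and 15 moved. Without the filter, with quantile-normalised columns or with repeats of the same 4 values left out, none of the 8 results moved. Each value was judged alone, however, and the balance of the 2-fold counts turned on the quantile scaling, with 2074 higher and 2130 lower. When both values had to exceed the median, 1085 probe sets were 2-fold lower, and 184 were higher and 284 lower at 4-fold, with 80.6% of the lower ones kept in spheres and 82.4% nearer to the transduced cells in ES cells; fewer probe sets enter by construction. With the filter at the 75th percentile, 1616 were higher and 1146 lower at 2-fold and 242 higher at 4-fold. Shares kept in the spheres moved to 66.7% of the higher set with each array centred on its median, and to 39.0% of the higher and 58.4% of the lower set when kept meant 4-fold from astrocytes. Among probe sets changed 8-fold or more, 63.2% of the higher ones were kept in spheres and 21.1% lay nearer to the transduced cells in ES cells. Without the runs of consecutive numbers, the same shares of the 4-fold higher set were 66.8% and 35.7%. The cause of the moved shares was not tested. No paired analysis was possible because each group has 1 array, and no array could be left out. Low signal limits the folds, since 206 of the 390 higher and 449 of the 733 lower probe sets lay at or below the filter value on their weaker array.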
